A study of Mus musculus with 4 samples.

Results

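Samsn1, Gadd45g, Lifr, Nfil3, Il4i1, Rflnb, B3gnt7, Prag1 and St7 are 9 of the 32285 genes counted in single mouse spleen cells, and they were chosen by their higher UMI counts (unique molecular identifiers, one per captured RNA molecule) in B cells 4 days after immunization. That contrast chose them, so the day 4 levels in B cells below are a description and not a finding. Splenic B cells and CD4+ T cells were profiled as 2 single-cell 5′ libraries, each holding 4 pools of cells marked by hashtag antibodies. The pools were Cre control and Il2rb KO cells of mice left unimmunized (day 0) and of mice given sheep red blood cells by the intraperitoneal route and taken at day 4, all on the C57BL/6NRj background with Il2rbfl/fl and a Cre allele in the sample labels. Those labels print 1 and the same genotype for control and KO, so the genotype of a pool comes from its hashtag. In this design Cre is active in B cells, and the T cells carry the floxed alleles without being the target. The sources used here give no age, no sex and no number of mice for any pool. T cells were isolated with a kit named for naive CD4+ cells.

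The 9 genes belong to several classes. Samsn1 encodes an SH3 and SAM domain adaptor of lymphocytes, and Prag1 a pseudokinase of the PEAK family. Lifr is the receptor chain for leukemia inhibitory factor and pairs with Il6st (gp130). Nfil3 is a basic leucine zipper transcription factor that binds the same sites as the PAR family members Dbp, Tef and Hlf. Gadd45g is a stress-inducible protein that binds the kinase Map3k4 upstream of p38 and JNK. Il4i1 is a secreted amino acid oxidase first found as an interleukin-4-induced gene of B cells. B3gnt7 adds N-acetylglucosamine to glycan chains, and Rflnb (refilin B) binds the actin crosslinker filamin. B cells that meet antigen and T cell help switch on adaptors, receptors, survival factors and antigen presentation genes in the days before germinal centers form.

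RefSeq promoters (GRCm38.p6) were present for 8 of the 9 genes, in 11 entries, since Lifr and St7 have alternative starts. The 250 bases before the start site are printed for 4 genes, because these show how unlike the promoters of genes chosen together are. Letters in capitals mark a match to 1 of 8 short motifs, and all sequences run 5′ to 3′ on the strand of the gene. Samsn1 is at chr16:75909267-75909516 on the minus strand, Gadd45g at chr13:51846425-51846674 on the plus strand, B3gnt7 at chr1:86302971-86303220 on the plus strand and Nfil3 at chr13:52981040-52981289 on the minus strand.
Samsn1: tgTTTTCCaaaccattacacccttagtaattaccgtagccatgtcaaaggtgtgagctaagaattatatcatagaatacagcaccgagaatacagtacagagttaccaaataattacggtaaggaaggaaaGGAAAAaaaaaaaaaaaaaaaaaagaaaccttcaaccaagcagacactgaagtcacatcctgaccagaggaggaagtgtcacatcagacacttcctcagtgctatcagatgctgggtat
Gadd45g: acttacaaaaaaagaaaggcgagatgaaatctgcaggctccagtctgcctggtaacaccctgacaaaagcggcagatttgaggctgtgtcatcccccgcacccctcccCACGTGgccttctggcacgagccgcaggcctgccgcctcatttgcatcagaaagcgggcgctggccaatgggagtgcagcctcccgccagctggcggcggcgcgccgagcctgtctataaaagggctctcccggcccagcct
B3gnt7: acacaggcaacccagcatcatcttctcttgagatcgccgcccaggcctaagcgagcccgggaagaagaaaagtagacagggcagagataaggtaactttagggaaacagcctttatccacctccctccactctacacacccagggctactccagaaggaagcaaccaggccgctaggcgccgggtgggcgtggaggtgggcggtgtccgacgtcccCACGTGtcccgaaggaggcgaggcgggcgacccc
Nfil3: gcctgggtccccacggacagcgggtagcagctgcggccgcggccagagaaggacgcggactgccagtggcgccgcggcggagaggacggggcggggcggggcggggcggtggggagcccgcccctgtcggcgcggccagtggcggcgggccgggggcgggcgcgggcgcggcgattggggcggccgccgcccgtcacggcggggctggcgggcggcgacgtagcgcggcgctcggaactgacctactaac

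The capitals are GGAAAA, the core bound by NFAT, and its reverse complement in Samsn1, and the E box CACGTG in Gadd45g and B3gnt7. The Nfil3 stretch held no match. The Samsn1 promoter was the poorest of the 11 entries in G and C, at 38.4%, while Nfil3 stood at 81.6% and the richest entry, of Lifr, at 82.4%. The median over all 32851 promoters of the table was 52.4%. On either strand, GGAAAA was found in 20.4% of all promoters and in 1 of the 11 entries, and CACGTG in 6.02% and in 2. The STAT letters TTCNNNGAA (7.02% of all promoters), the AP-1 letters TGANTCA (6.75%), the NF-kB motif, GGG and TTTCC with 2 bases of any kind between (1.41%), the CRE letters TGACGTCA (1.55%) and the NFIL3 letters TTANGTAA (2.06%) were in none of the 11. The wider STAT6 spacing, TTC and GAA with 4 bases of any kind between (5.85%), was in 1 St7 entry. Each motif searched was thus present in at most 2 of the 11 entries.

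In GENCODE vM21 coordinates (mm10) all 9 genes are protein coding and lie on 8 chromosomes. Samsn1 spans chr16:75858793-76022281, Gadd45g chr13:51846678-51848468, Lifr chr15:7090614-7197489, Nfil3 chr13:52967209-52981073 and Il4i1 chr7:44816387-44840809. The promoter entries of Samsn1, Lifr and Il4i1 lie inside these spans. The Samsn1 stretch printed above thus precedes a start within the annotated gene and not its outer end. Rflnb spans chr11:76019194-76027782, B3gnt7 chr1:86302832-86307305, Prag1 chr8:36094828-36147787 and St7 chr6:17692933-17943025. Il4i1 overlaps Nup62 on the same strand and Atf5 and Tbc1d17 on the other, so its counts are uncertain where exons are shared. Nup62 held 170 UMIs in day 0 control B cells, 173 in day 0 KO, 395 in day 4 control and 504 in day 4 KO, against 780, 645, 3255 and 4748 for Il4i1. The antisense genes that overlap Samsn1, B3gnt7 and St7 held at most 5 UMIs in any pool.

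After filters, 5254 B lineage cells and 7517 T lineage cells entered the comparisons. Series of 4 values are given throughout for day 0 control, day 0 KO, day 4 control and day 4 KO. There were 1096, 984, 1304 and 1870 B cells and 986, 1283, 2007 and 3241 T cells. Median depth was 4630, 4904, 6086 and 5855 UMIs per B cell and 4514, 4550, 5575 and 5449 per T cell, and pools summed to between 4604361 and 20277300 UMIs. The day 4 cells were thus deeper, so each cell was thinned to 2000 UMIs before any share of cells holding a UMI was read. Levels are UMIs of a gene per 1000000 UMIs of all genes (CPM) in the summed cells of a pool, and each value in brackets is a 95% interval of counting error. Each group was 1 pool, so no difference between groups has a test or a replicate error. Il2rb, the deleted gene, held 0, 0, 7 and 4 UMIs in B cells, too few to check the KO label, and its 5′ tags may lie outside the deleted part. The 5 B lineage markers summed to between 7628 and 9181 CPM in the B cells and to between 219.8 and 260.1 CPM in the T cells, where Ms4a1 was at 0 in 3 of 4 pools. In the B cells Cd3e was at 0 in all pools, the 3 NK markers and the 4 dendritic markers summed to at most 0.697 CPM each, and the 5 myeloid markers to between 6.30 and 11.4 CPM. The lineage gate itself limits these genes, and Ms4a1 in the T cells, so the low sums are no check of purity. Over all B library cells with 1 hashtag, gated or not, the myeloid markers summed to 463, 552, 3094 and 641 CPM. The 4 globin genes summed to between 9.10 and 15.2 CPM in 3 pools and to 933 CPM in KO day 4. Without cells of over 10 globin UMIs, 1 in that pool, all 59 ratios of the 9 genes stayed within their counting intervals. The libraries shared 84 cell barcodes.

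Samsn1 stood in B cells at 100.7 CPM (day 0 control), 97.8 CPM (day 0 KO), 500.1 CPM (day 4 control) and 560.2 CPM (day 4 KO). Both day 4 pools were far above both day 0 pools, by 4.96-fold (4.55 to 5.42) for control and by 5.73-fold (5.26 to 6.26) for KO. After thinning, a Samsn1 UMI was found in 16.5, 16.8, 46.8 and 51.5% of cells. Prag1, the other signalling scaffold, stood at 16.2, 16.9, 37.9 and 42.1 CPM, with ratios of 2.34 (1.86 to 2.97) and 2.50 (2.01 to 3.14). No single cell held more than 3.16% of the Prag1 UMIs of a pool or 2.36% of those of Samsn1.

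Lifr, the receptor chain, was near the detection limit at day 0 and clearly counted at day 4. It held 13 and 12 UMIs at day 0 and 323 and 309 at day 4, or 2.27, 2.13, 32.3 and 22.9 CPM. For control this was a ratio of 14.3 (8.22 to 27.1), and for KO of 10.8 (6.07 to 21.1). Nfil3, the transcription factor, held 3, 4, 134 and 136 UMIs, or 0.523, 0.710, 13.4 and 10.1 CPM. With so few day 0 UMIs its ratios were wide, 25.6 (8.59 to 126) and 14.2 (5.43 to 52.9). Over all cells with 1 hashtag, lineage gate or not, the KO ratio of Nfil3 was 5.06.

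Gadd45g, the stress-inducible kinase activator, stood at 23.4, 20.6, 67.1 and 73.7 CPM, 2.87-fold (2.38 to 3.49) and 3.58-fold (2.95 to 4.38) higher at day 4. Among the enzymes, Il4i1 stood at 136, 114, 326 and 352 CPM, with ratios of 2.40 (2.21 to 2.59) and 3.08 (2.83 to 3.35). B3gnt7, the glycosyltransferase, stayed sparse at 2.61, 2.84, 7.10 and 10.0 CPM, with ratios of 2.72 (1.54 to 5.11) and 3.53 (2.09 to 6.35). Rflnb, the filamin-binding protein, stood at 44.8, 37.6, 100.2 and 92.7 CPM and was 2.24-fold (1.95 to 2.58) and 2.46-fold (2.13 to 2.86) higher. St7 stood at 5.75, 6.21, 35.9 and 25.4 CPM, 6.24-fold (4.37 to 9.21) and 4.08-fold (2.88 to 5.96) higher. Both day 4 pools stood above both day 0 pools for each gene. The choice of genes favored this order, and its share over all genes was not taken. All 9 were at least 1.5-fold higher at day 4 in both genotypes, as the choice of genes fixed, where 7.4% of genes with at least 20 UMIs in both pools together were so in control and 5.25% in KO. Their median log2 ratio was 1.52 in control and 1.84 in KO, against −0.09 and −0.03 over all such genes.

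**Figure D1:**
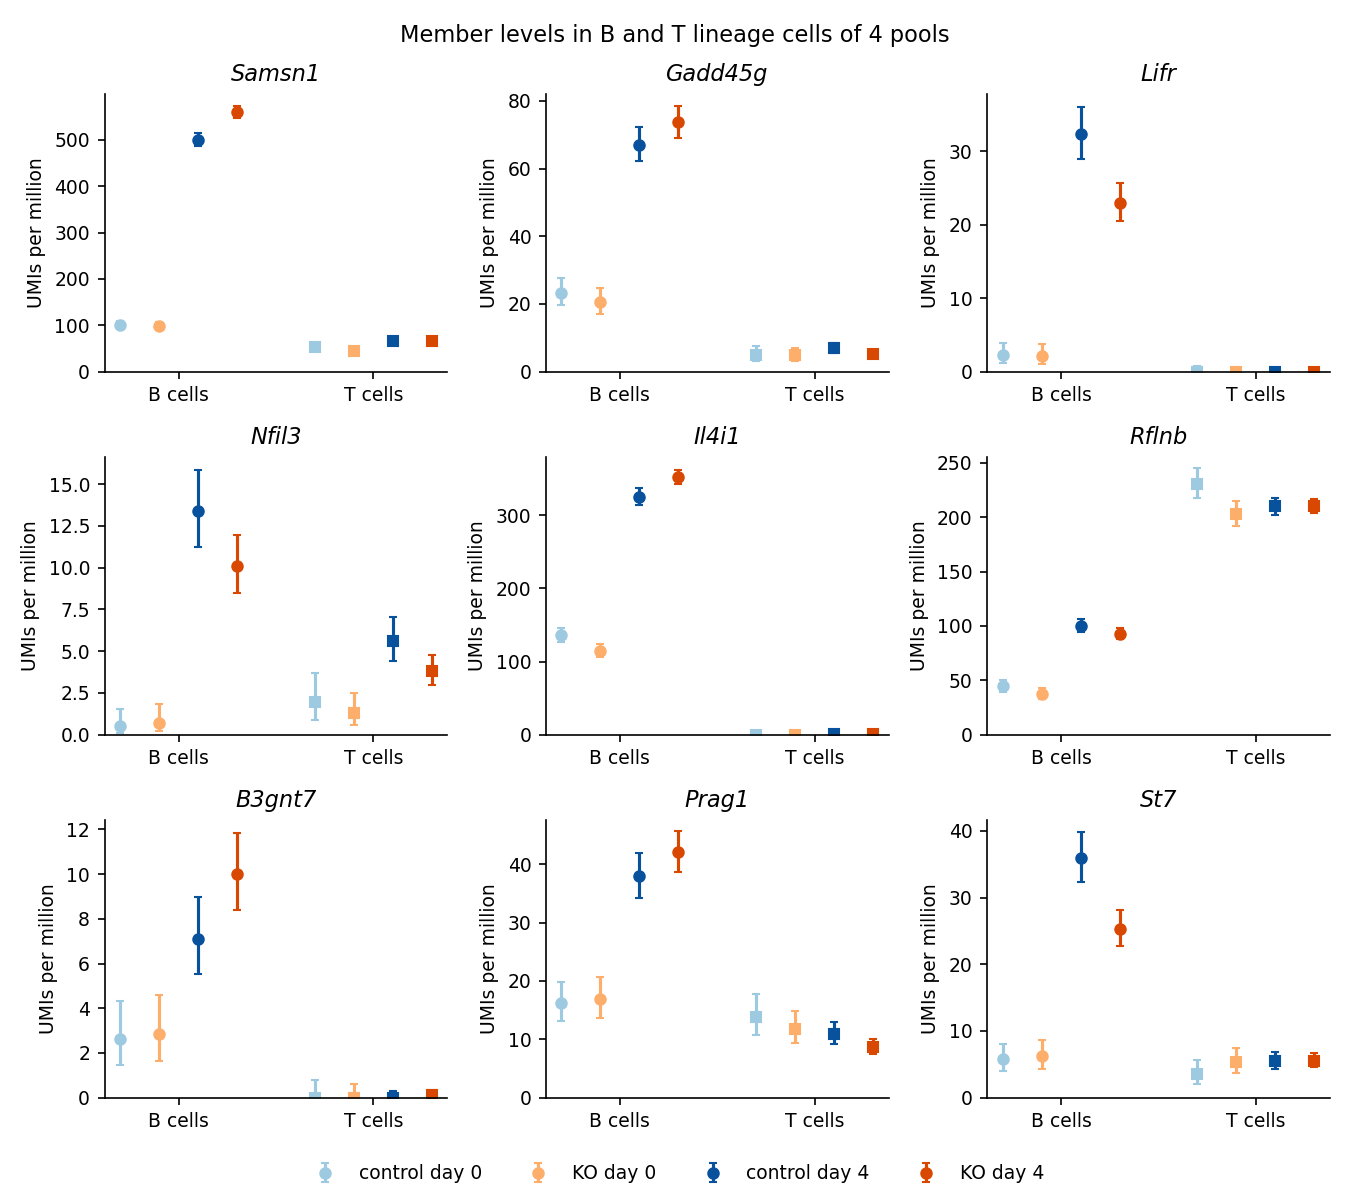
Level in CPM (y axis, linear, 1 panel per gene) of the 9 genes in B lineage and T lineage cells of the 4 pools, with 95% counting intervals as bars. Day 4 B cells stand above day 0 B cells in each panel, with Samsn1 at 500.1 and 560.2 against 100.7 and 97.8, while Rflnb is higher in T cells and Lifr is at 0 there.

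The closest relatives of the 9 genes are given beside them. Of 17 related genes, 12 had enough UMIs in control, and 3 of these were above 1 and 0 at least 1.5-fold higher. In KO 13 had enough, 3 were above 1 and 1 was at least 1.5-fold higher, B3gnt3 at 2.09 (0.700 to 8.41) from 20 and 4 UMIs. Over all genes, 38.8% were above 1 in control and 44.5% in KO, so a level at or below that of day 0 was usual. Gadd45a and Gadd45b, the other members of the GADD45 family, stood in control at 1.04 (0.772 to 1.42) and 1.11 (0.937 to 1.31) times the day 0 level, and in KO at 0.841 and 0.898. Il6st, the partner chain of Lifr, stood at 9.58, 8.87, 8.70 and 8.83 CPM, with no step between the days, and Osmr, another partner of Il6st, held 0 UMIs. Dbp and Tef, the PAR factors, were at 0.707 (0.523 to 0.958) and 0.869 in control and 0.891 and 0.930 in KO. B3gnt8, a glycosyltransferase of the B3gnt7 family, stood at 0.555 (0.487 to 0.634) of its day 0 level in control and at 0.652 (0.576 to 0.739) in KO, and B3gnt2 stood at 0.714 and 0.781. St7l, the paralog of St7, stood at 0.666 (0.490 to 0.908) and 0.718. Sash3, an adaptor related to Samsn1, was at 0.905 and 0.994, and Peak1, related to Prag1, at 0.739 and 1.12. Rflna, the paralog of Rflnb, held 0, 2, 2 and 8 UMIs, too few for a ratio.

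**Figure D2:**
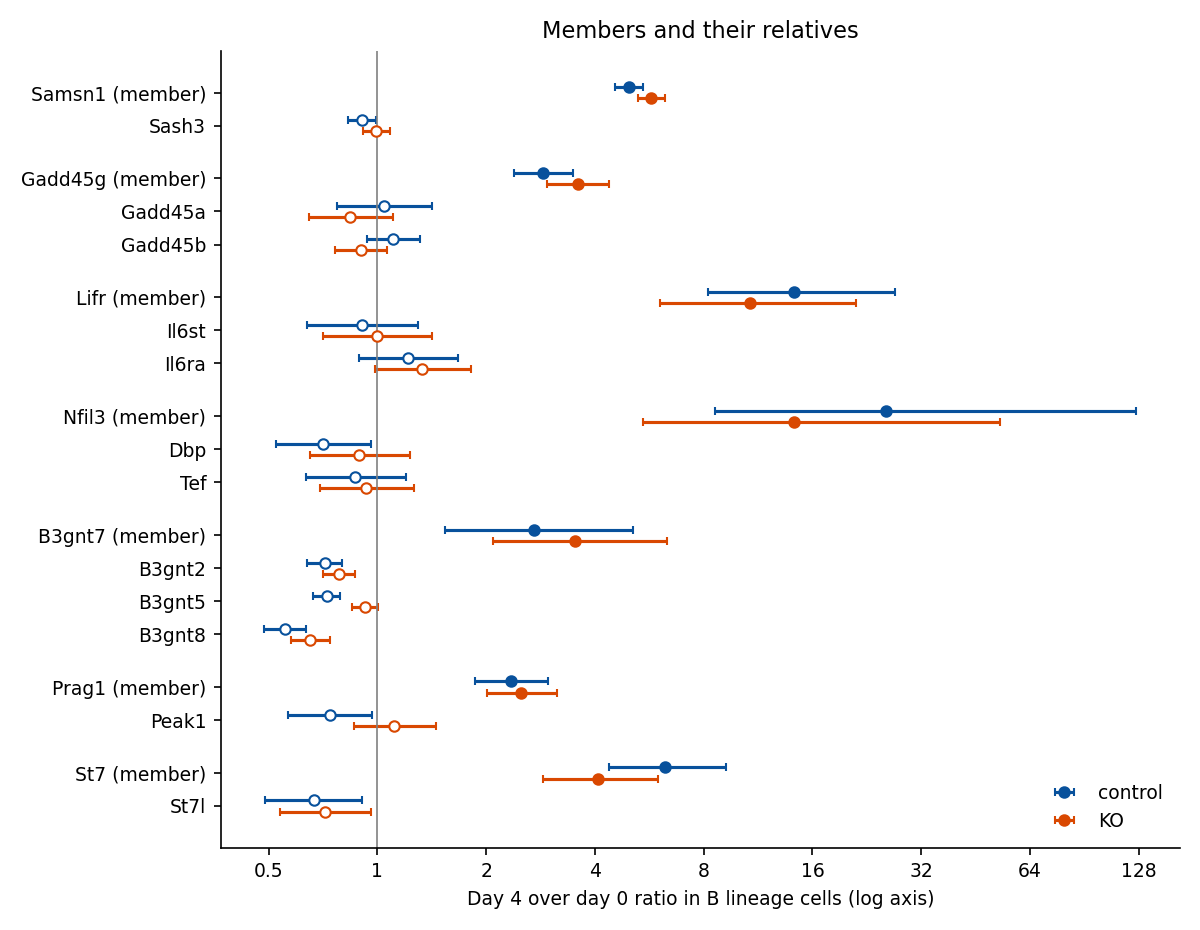
Day 4 over day 0 ratio in B lineage cells (x axis, log scale) of 7 of the genes (filled) and of their relatives with enough UMIs in both genotypes (open), in control and KO, with 95% counting intervals. The filled points lie between 2.34 and 25.6, and the open points between 0.555 and 1.33.

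T cells of the same pools were set beside the B cells. The day 4 B over T ratios below rest on the day 4 B cell values that chose the genes, and Lifr and B3gnt7 had enough UMIs through B cells alone, so these ratios are a description. Lifr held 0 UMIs in all 4 T cell pools, under 3-count floors of 0.148 to 0.652 CPM. B3gnt7 held 0, 0, 0 and 2 UMIs and Il4i1 1, 1, 7 and 14. An Il4i1 UMI was found in 0.0794 to 0.152% of thinned T cells, against 16.3 to 36.5% of B cells. At day 4 Il4i1 was 604-fold (293 to 1503) higher in B than in T cells of the control and 510.0-fold (304 to 934) in KO. Lifr was at least 139.8-fold and 155-fold higher, against a floor of 3 counts per pool.

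Samsn1 was present in T cells, at 52.1, 44.2, 66.1 and 66.9 CPM. Its level in B cells was 1.93-fold and 2.21-fold that in T cells at day 0, and 7.57-fold (7.04 to 8.14) and 8.38-fold (7.91 to 8.88) at day 4. Rflnb went the other way and was higher in T cells of every pool, at 231, 203, 210.0 and 210.0 CPM. Its B over T ratio was 0.194 and 0.185 at day 0 and 0.477 and 0.441 at day 4, so that day 4 B cells still held less than T cells. At day 4, 8 of the 9 genes were at least 1.5-fold higher in B cells in both genotypes, beside 22.5% of all genes in control and 22.3% in KO, a count that the choice of genes favors. Rflnb was the gene at least 1.5-fold lower in B cells in each pool, beside 16.4, 17, 20.6 and 21.1% of all genes. At day 0, 4 of 6 genes with enough UMIs were at least 1.5-fold higher in B cells in control (26.6% of all genes) and 3 of 6 in KO (25.7%).

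The change between the days in T cells is a contrast that the choice of genes did not use. Most of the genes differed there by less than 1.5-fold. Of 6 genes with enough UMIs, 2 were at least 1.5-fold higher at day 4 in control, Nfil3 and St7, where 10.9% of all genes were. In KO 2 of 6 were, Nfil3 and Samsn1, where 8.59% of all genes were. Nfil3 stood at 1.96, 1.28, 5.62 and 3.80 CPM, 2.88-fold (1.44 to 6.54) and 2.97-fold (1.43 to 7.12) higher at day 4, so both genotypes had the same direction. Samsn1 was higher by 1.27-fold (1.10 to 1.47) in control and by 1.51-fold (1.33 to 1.73) in KO, and St7 1.57-fold (0.906 to 2.90) and 1.05-fold. Rflnb had ratios of 0.910 (0.847 to 0.977) and 1.03 (0.970 to 1.10), and Prag1 of 0.787 (0.582 to 1.07) and 0.733 (0.556 to 0.975). Over all cells with 1 hashtag, Nfil3 alone stayed at or above 1.5-fold in each genotype.

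KO and control B cells were then compared, a contrast on which the genes were not chosen, though it holds the same day 4 cells. At day 0, 0 of 8 genes with enough UMIs differed by at least 1.5-fold, where 4.26% of all genes were higher and 3.52% lower in KO. Il4i1 was the gene whose interval excluded 1, at 0.842 (0.757 to 0.936). Samsn1 had a ratio of 0.971 (0.862 to 1.09), Gadd45g 0.881 (0.681 to 1.14), Rflnb 0.840 (0.697 to 1.01) and Prag1 1.04 (0.773 to 1.40). With 13 against 12 UMIs, the Lifr interval ran from 0.392 to 2.23, so a difference of 2-fold was not detectable at this depth.

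At day 4, 0 of 9 genes differed by at least 1.5-fold, where 3.07% of all genes were higher and 3.95% lower in KO. By counting interval alone, 3 were higher, 3 were lower and 3 had intervals that included 1. The share of all genes by this interval rule was not taken, so the split is a description. Samsn1 was 1.12-fold (1.08 to 1.16) higher in KO, Il4i1 1.08-fold (1.03 to 1.13) and B3gnt7 1.41-fold (1.05 to 1.91). Lifr stood at 0.709 (0.605 to 0.832) of the control level, St7 at 0.706 (0.607 to 0.821) and Nfil3 at 0.753 (0.588 to 0.963). Gadd45g had a ratio of 1.10 (0.995 to 1.21), Prag1 1.11 (0.974 to 1.27) and Rflnb 0.925 (0.851 to 1.01). These intervals hold no variation between mice, and differences of this size have no replicate check.

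In T cells, which were not the target of the deletion, Nfil3 also stood lower in KO at day 4, at 0.675 (0.484 to 0.943), and Prag1 at 0.793 (0.632 to 0.997). Samsn1 and St7 had day 4 T cell ratios of 1.01 and 1.01, and the interval of Rflnb ran from 0.953 to 1.05. None of 7 genes differed by 1.5-fold between the genotypes in day 4 T cells, beside 2.88% of all genes higher and 3.87% lower. At day 0, 1 of 5 did, St7 at 1.52 (0.813 to 2.96), beside 4.32% of all genes higher, and it stood at 1.12 over all cells with 1 hashtag.

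**Figure D3:**
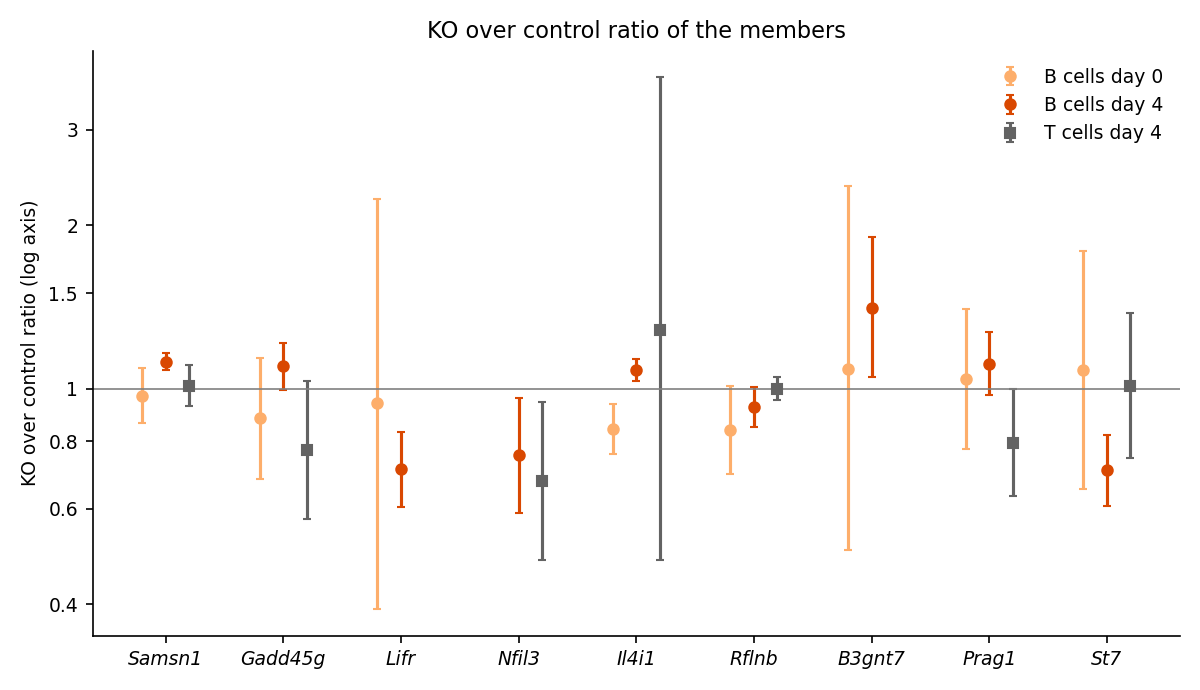
KO over control ratio (y axis, log scale) of each gene in B lineage cells at day 0 and day 4 and in T lineage cells at day 4, with 95% counting intervals, where the UMIs sufficed for a point. At day 4 Lifr, Nfil3 and St7 lie at 0.709, 0.753 and 0.706 in B cells, and Nfil3 at 0.675 in T cells.

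The day 4 level was next followed cell by cell. Cells with at least 3 Samsn1 UMIs after thinning, the Samsn1-high cells, numbered 9, 8, 203 and 326, or 0.845, 0.827, 15.6 and 17.6% of B cells. The highest cell held 5, 4, 10 and 14 Samsn1 UMIs. At day 4, 53.2% of control and 48.5% of KO B cells held no Samsn1 UMI at this depth. Without thinning, 68.6 and 70.6% of day 4 B cells held a Samsn1 UMI, so cells with none after thinning may still express it. In the thinned cells with none, Il4i1 stood at 188 CPM (control) and 177 CPM (KO), against 113 and 98.1 CPM in the matching day 0 cells. These are 1.66-fold (1.38 to 2.01) and 1.80-fold (1.49 to 2.20), a direction that the choice of genes favors. Il4i1 stood higher with each step of the Samsn1 count at day 4, at 483 CPM (control) and 469.8 CPM (KO) in cells with 1 or 2 UMIs and at 623 (549 to 705) and 828 (760 to 901) CPM in Samsn1-high cells. Gadd45g went in the same order, at 55.6, 92.6 and 177 CPM in control and 42.2, 85.9 and 183 CPM in KO. Lifr stood at 27.5, 51.9 and 59.1 CPM in control and at 14.4, 29.4 and 41.4 CPM in KO, so its KO level was lower at each Samsn1 count, though the intervals of the 2 levels overlapped at each count. In cells with no Samsn1 UMI the KO over control ratio of Lifr was 0.525 (0.306 to 0.888). The same ratio was 0.567 (0.355 to 0.904) in cells with 1 or 2 UMIs and 0.701 (0.389 to 1.27) in Samsn1-high cells.

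A UMI of 1 or more of the 9 genes was in under 1 in 2 B cells at day 0 and in most at day 4. After thinning, 57.7, 59.8, 29.5 and 28.4% of B cells held none of them. At least 3 of the 9 genes were found in 1.69, 0.827, 17.2 and 17.4% of B cells. If the genes were spread over the cells of a pool without regard to each other, the product of their shares would give 0.884, 0.740, 12.1 and 11.7%. At least 5 genes were found in 25 control and 23 KO cells at day 4, where the product gives 2.72 and 3.03 cells, and the fullest cell held 6 and 8. Cells with none were also more frequent at day 4 than the product gives, 29.5 against 19.5% and 28.4 against 18.4%. Both ends of the distribution were thus fuller than independent genes would make them. Without thinning the shares with at least 3 genes were 9.22, 8.84, 48.0 and 45.1%. In T cells at least 3 genes were found in 1, 0, 3 and 3 cells.

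**Figure D4:**
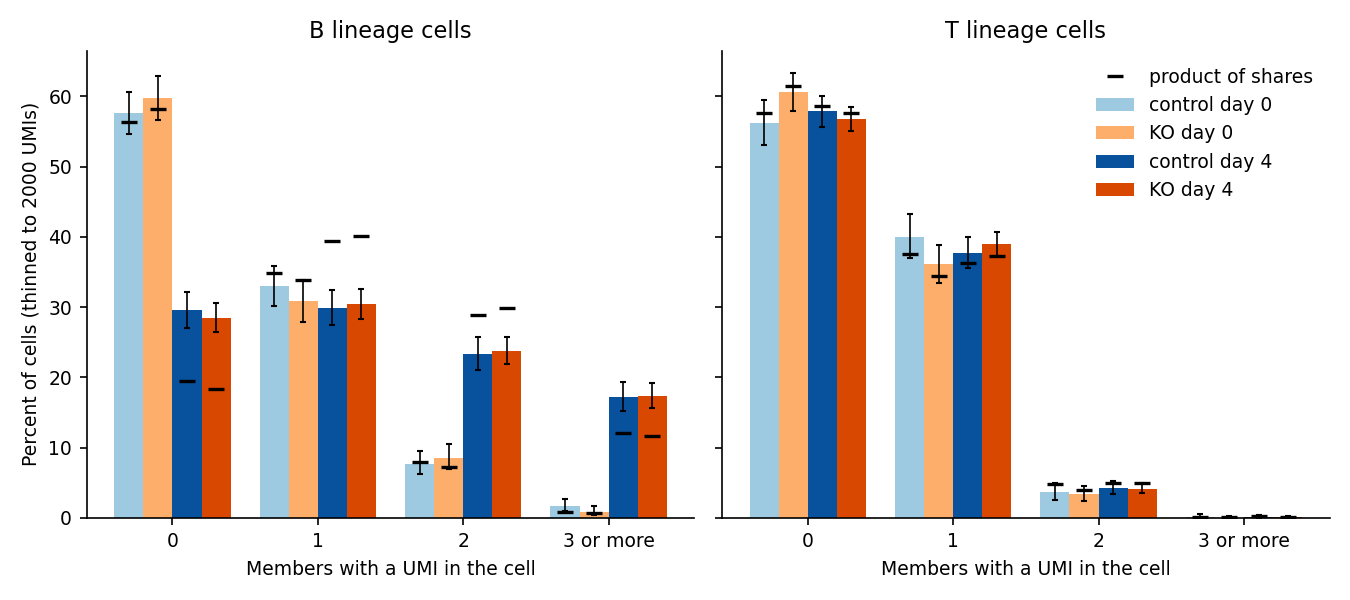
Percent of cells (y axis) with a UMI of 0, 1, 2 or at least 3 of the 9 genes after thinning to 2000 UMIs, for B and T lineage cells of the 4 pools, with exact binomial 95% intervals. Black dashes give the product of the shares, and day 4 B cells with at least 3 genes stand at 17.2 and 17.4% against 12.1 and 11.7%.

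The same count was taken within marker gates, which are described further on. Within follicular-gated cells alone, at least 3 of the genes were found at day 4 in 20.6% (control) and 21.7% (KO) of cells, where the product within the gate gives 16.6 and 17.1%. In marginal zone-gated cells the shares were 11.3% (6.63 to 17.8%) and 11.1% (7.06 to 16.3%), where the product gives 5.73 and 4.72%. The excess was thus also present inside both gates.

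Pairs of the genes were counted in the same thinned cells. At day 4, 26 of 36 pairs had at least 5 cells expected from the product of the shares in each genotype. Their median observed over expected count was 1.40 in control and 1.42 in KO, and 24 and 25 of the 26 were above 1. The share of all gene pairs above 1 was not taken, so these counts are a description. Samsn1 and Il4i1 met in 292 control cells against 206 expected, a ratio of 1.42 (1.28 to 1.57), and in 476 KO cells against 348, a ratio of 1.37 (1.26 to 1.48). The highest pair in both was Gadd45g with St7, at 2.08 (1.28 to 3.21) and 2.21 (1.39 to 3.34), from 20 and 22 cells. Samsn1 with Nfil3 stood at 1.83 (1.18 to 2.72) and 1.72 (1.09 to 2.57). Lifr with St7 was below 1 in control, with 4 cells against 5.48 expected. At day 0 only 6 and 5 pairs could be judged, with medians of 1.13 and 1.32.

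To place the pairs with Samsn1, the same ratio was taken for all genes in at least 2% of thinned day 4 cells. Of these, 0.0528% in control and 0.0134% in KO were found with Samsn1 at least 1.5 times as often as the product of the shares gives, and the median was 0.996 in both. Of the 7 other genes of the group that were frequent enough, 2 of 7 reached 1.5 in control and 0 of 7 in KO. Lifr, Samsn1 and Gadd45g led a cluster of these same cells in earlier work, so the pairing was partly known when the genes were chosen and supports nothing further.

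Across cells of a pool, each gene was also correlated with the sum of the other 8, on log-scaled unthinned counts. For Samsn1, r was 0.134 and 0.140 at day 0 and 0.537 and 0.530 at day 4. Il4i1 gave 0.146, 0.172, 0.491 and 0.468, and Gadd45g 0.0868, 0.0733, 0.290 and 0.310. The remaining genes were lower at day 0, between −0.0216 (Lifr, KO) and 0.0626 (Prag1, control). Lifr was the weakest at day 4, at 0.166 and 0.142. These are descriptions over 984 to 1870 cells that share a library. The median over all other genes was near 0, and r of the sums with log depth lay between −0.03 and 0.10.

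The 10 genes outside the group whose levels followed the summed 9 most closely over day 4 B cells were Cd83, Sypl, Dock10, Pxdc1, Stap1, Pxk, H2-Ab1, Fcer2a, Hvcn1 and Ifi30, of 9558 compared. Cd83, a surface glycoprotein of activated B cells, had r of 0.553 in control and 0.584 in KO at day 4, and 0.203 and 0.229 at day 0. Sypl followed with 0.420 and 0.442, and Dock10, a guanine nucleotide exchange factor, with 0.430 and 0.391. The level of Cd83 was itself 2.54-fold (2.36 to 2.74) and 3.12-fold (2.89 to 3.36) higher at day 4, while Fcer2a, the low-affinity IgE receptor CD23, had ratios of 0.905 (0.865 to 0.948) and 1.06 (1.02 to 1.11). In control, Fcer2a thus followed the group over cells without a higher day 4 level of its own.

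Samsn1 was also higher at day 4 in cells with no Cd83 UMI after thinning, a direction that the choice of genes favors. Cd83 stood at 152, 141, 386 and 438 CPM in the whole pools. Cells with no Cd83 UMI after thinning may therefore still express Cd83, so the split does not show Samsn1 in cells that lack it. In B cells with no Cd83 UMI after thinning, Samsn1 stood at 90.6, 94.1, 344 and 365 CPM, so that day 4 was 3.80-fold (3.16 to 4.59) and 3.88-fold (3.25 to 4.67) above day 0. Cells with at least 3 Cd83 UMIs numbered 21, 18, 125 and 214, and at day 4 they held Samsn1, one of the genes by whose sum Cd83 was picked, at 1176 (1045 to 1318) and 1311 (1205 to 1424) CPM. Il4i1 stood in the same day 4 cells at 764 and 899.5 CPM, against 211 and 213 CPM in those with no Cd83 UMI.

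Marker gates that use none of the 9 genes then divided the B cells. Follicular-gated cells, those with an Fcer2a UMI and no other gate, made up 56.0, 54.2, 54.5 and 56.5%, and marginal zone-gated cells, with marginal zone markers and no Fcer2a UMI, 9.20, 11.2, 10.8 and 10.7%. Between 28.0 and 30.4% met no gate. The shares of these gates were thus close in the 4 pools. The day 4 level of all 9 genes was at least 1.5-fold higher within the follicular gate in both genotypes, a direction that the choice of genes favors, where 4.17% of all genes were in control and 4.1% in KO.

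Most of the genes were higher in follicular than in marginal zone-gated cells at day 4. Fcer2a sets both gates and is itself among the 10 genes closest to the group over day 4 cells, so the contrast partly restates that likeness. In control 6 of 9 were at least 1.5-fold higher, where 11.9% of all genes were, and in KO 8 of 9, where 10.2% were. In control, Samsn1 stood at 657 CPM in follicular and 386 CPM in marginal zone-gated cells, a ratio of 1.70 (1.54 to 1.89). In KO it stood at 719 and 361 CPM, a ratio of 1.995 (1.83 to 2.18). Gadd45g differed by 3.37-fold (2.35 to 4.98) and 3.08-fold (2.34 to 4.15), and was already 3.92-fold (1.62 to 12.4) and 2.45-fold (1.23 to 5.57) higher at day 0. Il4i1 stood at 476 and 171 CPM in control and at 477 and 221 CPM in KO at day 4, but its ratio at day 0 was 1.29 (1.02 to 1.65) and 1.10 (0.869 to 1.40). Lifr stood at 41.0 and 15.3 CPM in control and at 27.6 and 15.3 CPM in KO, from 17 and 25 UMIs in marginal zone-gated cells.

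Prag1 had another pattern. At day 0 it was lower in follicular than in marginal zone-gated cells, with 15.6 and 34.5 CPM in control, 14.1 and 28.7 CPM in KO and ratios of 0.451 (0.266 to 0.785) and 0.493 (0.287 to 0.864). At day 4 the ratios were 0.961 (0.709 to 1.32) and 1.28 (0.976 to 1.70). Within the follicular gate Prag1 was 2.95-fold (2.14 to 4.13) and 3.54-fold (2.54 to 5.07) higher at day 4, and within the marginal zone gate 1.38-fold (0.826 to 2.39) and 1.37-fold (0.836 to 2.30). The difference between the gates in this change was not tested. At day 0, 3 of 6 genes were at least 1.5-fold higher in follicular-gated cells in control (15.4% of all genes) and 2 of 6 in KO (16.8%), and Prag1 was among the 2 in control (8.11%) and the 1 in KO (7.27%) that were lower. St7 was the other in control, at 0.527 (0.193 to 1.66), and had a day 0 ratio of 0.872 (0.301 to 3.07) in KO. At day 4 St7 was higher in follicular-gated cells, at 1.72 (1.17 to 2.64) and 2.58 (1.65 to 4.25).

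Marginal zone-gated cells also held more of several of the genes at day 4. In them 4 of 6 genes with enough UMIs were at least 1.5-fold higher at day 4 in control (7.4% of all genes) and 6 of 7 in KO (8.93%). The choice of genes favors this direction, so the counts are a description. Lifr entered the KO count with 25 UMIs at day 4 and 0 at day 0, and so through day 4 alone. Samsn1 was 5.58-fold (4.09 to 7.80) and 3.57-fold (2.83 to 4.56) higher, and Il4i1 1.36-fold (1.04 to 1.79) and 1.92-fold (1.53 to 2.45). In transitional-gated cells, 21 to 28 per pool, Samsn1 stood at 53.9, 63.0, 459 and 366 CPM, while Il4i1 stood at 169.5 (106 to 257), 259, 132 and 148 CPM. In KO, Il4i1 stood in these cells at 0.570 (0.324 to 0.986) of its day 0 level, from 23 and 37 UMIs, against the direction in the whole pool. It was the 1 of 2 genes with enough UMIs that was at least 1.5-fold lower (14.6% of all genes), and Samsn1 was the 1 that was higher (14.2%). In the 28 plasma cell-gated KO day 4 cells, the pool with at least 20 such cells, Samsn1 stood at 263 CPM and Gadd45g at 13.6 CPM. The 20 dividing KO day 4 cells held Samsn1 at 382 CPM and Il4i1 at 42.5 CPM.

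**Figure D5:**
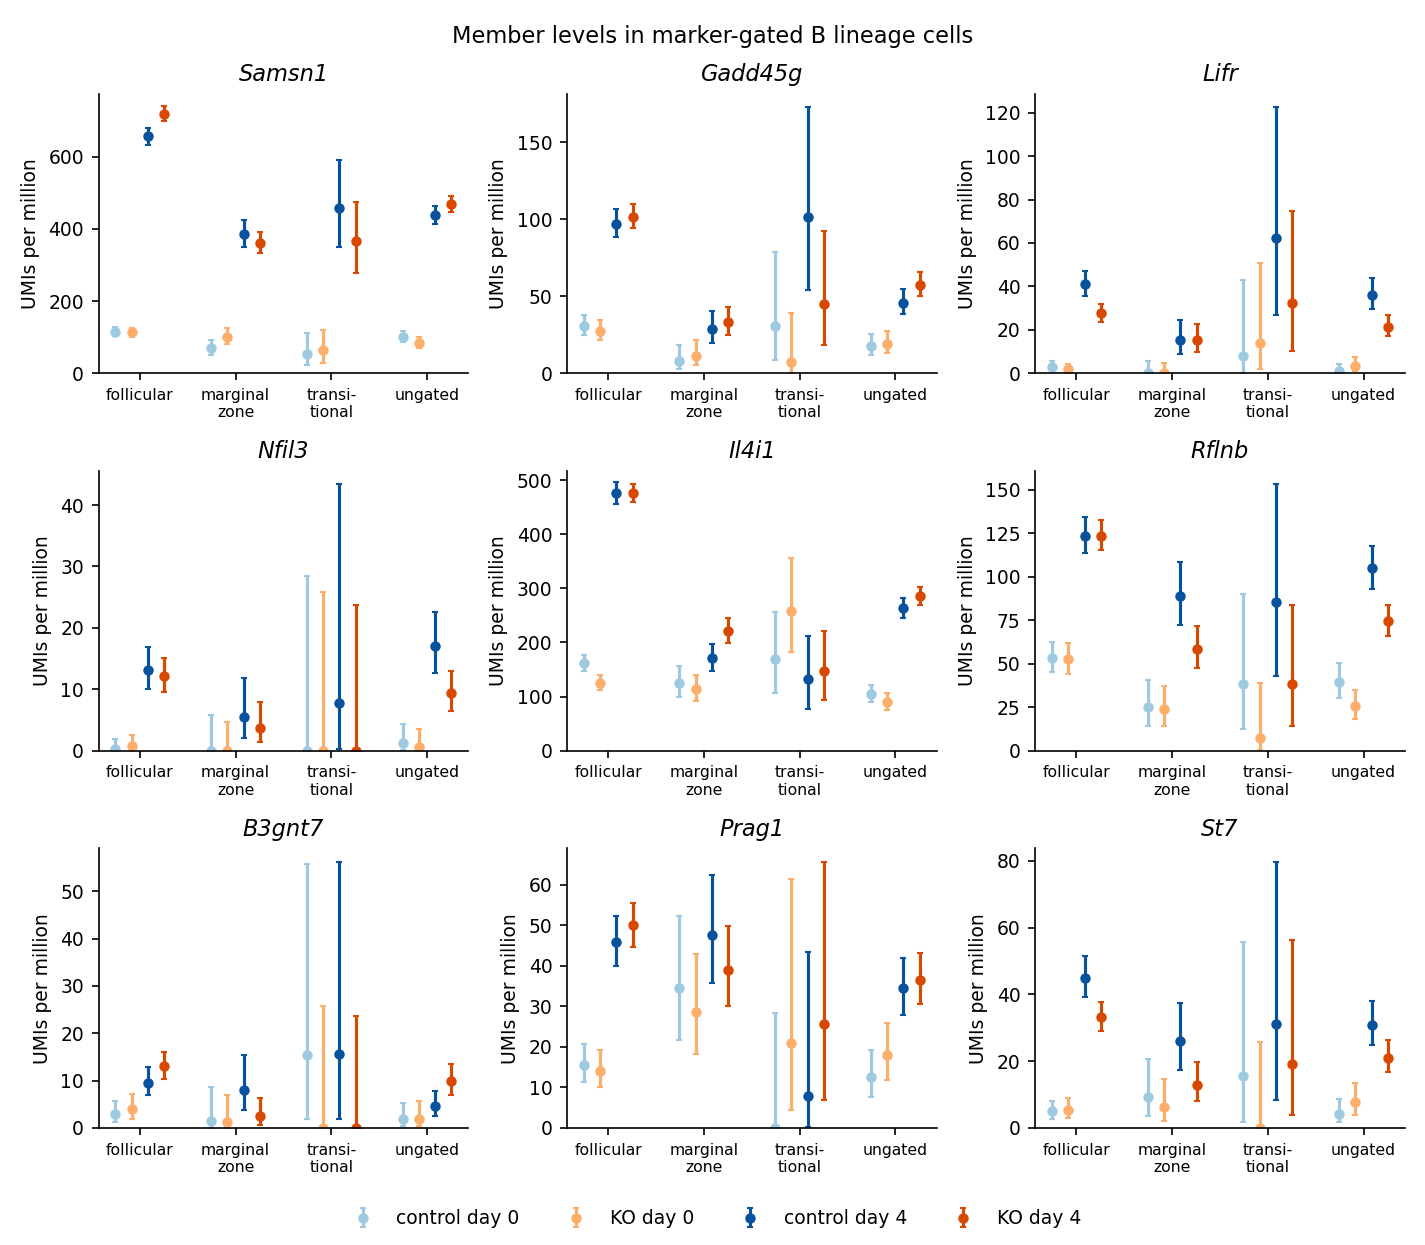
Level in CPM (y axis, linear, 1 panel per gene) of the 9 genes in 4 marker gates of B lineage cells and the 4 pools, with 95% counting intervals. Follicular-gated day 4 cells hold Samsn1 at 657 and 719 and Il4i1 at 476 and 477, above marginal zone-gated cells, while transitional-gated values have wide intervals from 21 to 28 cells.

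Between genotypes, Lifr was lower in KO at day 4 within the follicular gate, 0.673 (0.547 to 0.828), and in cells of no gate, 0.590 (0.434 to 0.798), and had a ratio of 0.998 (0.518 to 1.97) in marginal zone-gated cells. Whether the gates differ in this was not tested. St7 was lower in each of the 3, at 0.736 (0.607 to 0.892), 0.683 (0.497 to 0.936) and 0.491 (0.266 to 0.892). Nfil3 was at 0.918 (0.651 to 1.30) within the follicular gate and at 0.548 (0.344 to 0.865) in cells of no gate. In the follicular gate 0 of 9 genes reached 1.5-fold in either direction, beside 3.25% of all genes higher and 3.53% lower. In the marginal zone gate 2 of 7 were at least 1.5-fold lower in KO at day 4, St7 and Rflnb at 0.658 (0.492 to 0.880), beside 5.48% of all genes. In cells of no gate 2 of 9 were at least 1.5-fold lower, Lifr and Nfil3, beside 3.59% of all genes. There B3gnt7 was the 1 at least 1.5-fold higher in KO, at 2.14 (1.11 to 4.39), beside 5.78%, from 37 and 13 UMIs.

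T cells also differed between gates, and the 9 genes were not chosen on T cell values. Samsn1 stood at 30.9, 27.1, 36.3 and 37.7 CPM in naive-gated and at 132, 170.0, 211 and 164 CPM in regulatory-gated T cells, and the regulatory over naive ratios ran from 4.27 (2.69 to 6.57) to 6.28 (4.28 to 9.08). Nfil3 was 13.1-fold (6.23 to 29.5) and 22.6-fold (11.0 to 50.8) higher in regulatory than in naive-gated cells at day 4, at 24.7 and 22.6 CPM against 1.88 and 1.001 CPM. Rflnb was lower in regulatory-gated cells of all pools, with ratios of 0.238 to 0.365. Within naive-gated cells 1 of 5 genes with enough UMIs was at least 1.5-fold higher at day 4 in each genotype. The share of all genes was not taken there. In control it was St7 at 3.18 (1.33 to 9.22), from 37 and 6 UMIs, with 1.34 (0.761 to 2.51) in KO. In KO it was Gadd45g at 1.95 (0.801 to 5.71), with 1.13 (0.516 to 2.68) in control. Samsn1 stood in naive-gated cells at 1.18 (0.917 to 1.52) and 1.39 (1.12 to 1.75) times its day 0 level. Rflnb stood there at 1.07 (0.982 to 1.17) and 1.18 (1.09 to 1.28), and Prag1 at 0.786 (0.524 to 1.19) and 0.965 (0.642 to 1.48). Regulatory-gated cells made up 4.65, 4.53, 8.76 and 9.06% of T cells and naive-gated cells 65.4, 60.9, 50.1 and 53.6%. The part of these shares in the T cell ratios was not tested.

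Other genes of B cell activation were then read against all genes. Of 28 activation genes with enough UMIs, 10 were above 1 at day 4 in control, beside the 38.8% of all genes. Of these 28, 2 were at least 1.5-fold higher and 5 at least 1.5-fold lower (7.83% of all genes), and the median log2 ratio was −0.24 against −0.09 over all genes. In KO 15 of 28 were above 1, beside 44.5% of all genes, 3 were at least 1.5-fold higher and 3 lower (5.25% of all genes in each direction), and the median was 0.06 against −0.03. Cd83 led the list, followed by the survival gene Bcl2a1d at 1.74-fold (1.46 to 2.08) and the transcription factor Batf at 1.47-fold (1.15 to 1.89). Ccr7, the receptor that leads cells to the T cell zone, stood at 0.509 (0.462 to 0.560), and the NF-kB genes Nfkbid and Nfkb2 at 0.568 and 0.574. In KO, Nfkb2 was at 0.888.

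The lists around single genes are read against the same 38.8 and 44.5%. Among 12 interleukin-4 and STAT6 response genes, 7 were above 1 in control and 11 in KO. The whole interval lay above 1 for 5 of the 12 in control and 6 in KO, and below 1 for 2 and 0. The share of all genes by this interval rule was not taken. Socs1, a feedback inhibitor of cytokine receptors, was 3.53-fold (2.75 to 4.59) and 3.31-fold (2.61 to 4.25) higher, while Stat6 itself stood at 0.713 and 0.943. Among 12 genes of signalling by interleukin-6 family receptors, the family of Lifr, 4 and 6 were above 1. Socs3, the feedback inhibitor of gp130 receptors, stood at 4.18, 3.55, 18.9 and 19.1 CPM, 4.52-fold (2.95 to 7.23) and 5.37-fold (3.41 to 8.94) higher, and Stat3 at 1.30-fold (1.15 to 1.46) and 1.15-fold (1.03 to 1.28), while Il27ra, Tyk2 and Jak2 stood at 0.670, 0.725 and 0.746 in control. Of 14 GADD45 and stress kinase genes 5 and 2 were above 1. Map3k4, the kinase that GADD45 proteins bind, stood at 0.688 (0.537 to 0.883) and 0.955, Map2k6 at 0.621 and 0.702, Mapk14 (p38 alpha) at 0.775 and 0.968, and Pcna at 1.65-fold (1.44 to 1.89) and 1.18-fold. Of 12 clock and PAR factor genes 4 and 2 were above 1, and Nr1d2, a clock repressor, stood at 0.613 (0.440 to 0.856) and 0.731. The median log2 ratios of these 4 lists in control were 0.04, −0.27, −0.05 and −0.21. The KO medians, in the same order, were 0.13, −0.001, −0.21 and −0.20.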

How the data were processed

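Spleen B and CD4+ T cells were measured as counts of unique molecular identifiers (UMIs) per gene and cell with the 10x 5′ chemistry, per the labels' protocols. The deposited count matrices were made with Cell Ranger 5.0.0 on mm10, per the submitters' processing notes. Whether strand was used is not stated.

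Filters of 200 genes or more and no more than 10% mitochondrial UMIs per cell left 6218 of 6339 B library and 9196 of 9307 T library barcodes. Hashtags were called with HTODemux in Seurat 5.3.0 (R 4.3.3, positive quantile 0.99). In the B library 5477 cells had 1 hashtag, 568 several and 173 none, and in the T library 7636, 1007 and 553. Cells with several were left out as doublets, no doublet caller was run, and doublets within a pool remain. Lineage cells had at least 2 of 5 pan-lineage genes and at most 2 UMIs of 17 (B) or 12 (T) genes of other lineages.

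Counts were summed per pool (Python 3.11.15, numpy 2.4.6, scipy 1.17.1). Levels have exact Poisson, ratios conditional binomial and shares exact binomial 95% intervals, which cover counting error only. Ratios needed a sum of 20 UMIs over the 2 pools, and 1.5-fold was the size rule. Each group was 1 pool, so no test was made. Shares and gates used cells thinned to 2000 UMIs (seed 7), and 4 to 31 B cells per pool were too shallow. Gates used 1 to 8 markers, needed 20 cells in a pool and hold no gene of the group.

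Named genes were the 9 genes, their relatives, up to 3 highest and 3 lowest genes of each list by the control ratio with an interval that excluded 1, and the 10 genes closest to the summed group. The KO over control comparison in cells of no gate was added after its values were seen. The genes and lists were chosen with earlier results of these data known. Alternatives changed hashtag calls, lineage gate, mitochondrial limit, scaling, UMI minimum, averaging, thinning and gating. The intervals were tested on simulated data.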

Additional observations from a re-analysis of the deposited data

Results flagged for a closer look

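Il4i1 stood lower in KO than in control B cells at day 0, at 0.842 (0.757 to 0.936), and higher at day 4, at 1.08 (1.03 to 1.13). Rflnb moved in opposite directions with time in the control pools, at 2.24 (1.95 to 2.58) in B cells and 0.910 (0.847 to 0.977) in T cells. Prag1 did so in the KO pools, at 2.50 (2.01 to 3.14) in B cells and 0.733 (0.556 to 0.975) in T cells. Within naive-gated T cells the matching ratios were 1.07 (0.982 to 1.17) for Rflnb in control and 0.965 (0.642 to 1.48) for Prag1 in KO, so the lower T cell value was not seen in that gate for Rflnb and not resolved for Prag1. Regulatory-gated cells, which held less Rflnb, made up 4.65% of control T cells at day 0 and 8.76% at day 4. Naive-gated cells, which held more, made up 65.4% and 50.1%, and the part of these shares in the ratios was not tested. Il4i1, Rflnb and Prag1 are listed because the counting intervals of the ratios lay on opposite sides of 1 under the same contrast. None of these differences was tested, since each group was 1 pool, and for Rflnb and Prag1 the rise in B cells is what the genes were chosen for.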

How the results depend on the processing

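No paired analysis was possible because each group was 1 pool. All 9 genes kept ratios of at least 1.5 in day 4 B cells of both genotypes under every alternative. Of the 59 ratios, 54 moved by less than their counting interval over all cells with 1 hashtag, 58 with the mean over cells, and all 59 with the other hashtag rule, a limit of 5% mitochondrial UMIs, the median gene ratio set to 1, no UMI minimum, and without cells of over 10 globin UMIs, the last chosen after seeing the data. Over all cells with 1 hashtag, the count of genes at least 1.5-fold higher was 1 in KO over control B cells at day 0 (0 in lineage cells), 1 in T cells of control and 1 of KO at day 4 over day 0 (2 each), and 0 in KO over control T cells at day 0 (1). That last count was also 0 with the 5% mitochondrial limit and with the mean over cells, and the KO T cell count was 1 with the median ratio set to 1 and with the mean over cells. Shares of B cells with at least 3 genes follow depth: thinned to 1500 UMIs they were 0.277% in control at day 0 and 12.0 and 12.3% at day 4, and unthinned 9.22, 8.84, 48.0 and 45.1%. Gates on unthinned cells gave 4 genes higher in follicular-gated KO cells at day 0 (2 on thinned cells). Depth leaves Nfil3, Lifr and B3gnt7 at 3 to 16 UMIs in day 0 pools, which limits every ratio against them.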
